A study of Mus musculus with 12 samples.

Results

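Brown adipose tissue (BAT) was compared with white adipose tissue (WAT) in mice by RNA sequencing, to describe how the transcripts of one fat organ differed from those of the other in the same 3 conditions. The comparison took 6 of the 12 libraries of the study, 3 of BAT and 3 of WAT, and 12747 of the 22276 listed gene symbols, those that reached 1 FPKM (fragments mapped to a gene, scaled to transcript length and to all mapped fragments) in at least 1 of the 6. All mice were male C57BL/6J, 17 weeks old when the tissues were taken. In the NCD-veh condition mice were kept on normal chow (NCD) and given vehicle (veh), in HFD-veh they ate a high fat diet (HFD) and were given vehicle, and in HFD-ncls they ate HFD and were given narciclasine (ncls), a plant alkaloid. Diets began at 8 weeks of age and dosing at 10 weeks. Each organ had 1 library in each condition, so the 3 conditions served as the 3 replicates of an organ, and each p-value set the organ difference against the spread over diet, drug and animals together. The labels name neither the fat depots sequenced nor the number of mice behind a library.

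White adipocytes hold a single large lipid droplet and store triglyceride, which they release as fatty acids, and they secrete hormones such as leptin. Brown adipocytes hold many small droplets and densely packed mitochondria, and on adrenergic stimulation they burn fatty acids in the respiratory chain while uncoupling protein 1 lets protons leak back across the inner membrane, so that energy is released as heat. Both cells share a core of lipid-handling genes driven by PPARγ, while their precursors differ by body region.

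Differences are given as BAT minus WAT on the log2(FPKM + 0.1) scale ± SE (n = 3 libraries per organ), a scale that understates the change of genes near 0. A gene was called higher in one organ when limma gave an adjusted p under 0.05, the difference was at least 2-fold and its sign was the same in all 3 conditions. FPKM sums were 254403 to 269444 in BAT and 350051 to 351332 in WAT. The median difference of all tested genes was -1.02, and after each library was rescaled by the median of its gene ratios it was -0.16, a mean shift of 0.85. From FPKM and exon lengths, the listed genes accounted for about 64.0 to 67.8% of mapped fragments in BAT and 106 to 109% in WAT, an approximate calculation whose values above 100% were not explained. The table lists no gene of the mitochondrial genome, and what the other BAT fragments were was not tested. Of 9 common reference genes, 1 (Gapdh) was higher in BAT and 4 in WAT, while Tbp, the TATA-box binding protein, was at 8.47, 6.17 and 7.30 FPKM in BAT and 9.65, 7.23 and 8.22 FPKM in WAT, in the order NCD-veh, HFD-veh and HFD-ncls. Counts are therefore given as deposited and then rescaled.

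As deposited, 861 genes (6.75% of those tested) were higher in BAT and 6368 (50%) were higher in WAT. Rescaled, 2058 (16.4%) and 3019 (24%) of 12568 tested genes were called. Every one of the 861 BAT genes and 3019 of the WAT genes (23.7%) were called on both scales. Rescaling moved the differences of every condition towards BAT, by 0.78 to 0.91 log2 units. Genes called higher in BAT as deposited were therefore almost bound to stay called. For them, here and below, a call on both scales is no separate check. For WAT the rescaled call was the stricter one, and all 3019 genes that passed it were also called as deposited. The sign was the same in all 3 conditions for 11232 genes (88.1%). Genes enriched in skeletal muscle or liver were set apart, which left 729 genes higher in BAT and 6168 higher in WAT as deposited, and 1882 and 2870 rescaled.

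The brown adipocyte genes were for the most part higher in BAT. Of the 29 tested, 25 were higher in BAT (against 6.75% of all tested genes), 1 was higher in WAT and 3 were not called, with a median difference of 3.61 against -1.02 over all genes. Rescaled, 27 were higher in BAT and 1 in WAT, and the median was 4.43. Without the members that were also muscle-enriched, 21 of 25 were higher in BAT. The members of this and all later lists were chosen with earlier results of these data known. Their counts therefore describe the organs and are not independent tests. In whole tissue, fewer cells of a type and less RNA per cell cannot be told apart.

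Ucp1 (mm9 chr8:85814247-85822355), the uncoupling protein itself, was at 769.8, 768 and 739.6 FPKM in BAT and at 2.86, 2.38 and 3.92 FPKM in WAT (NCD-veh, HFD-veh and HFD-ncls, the order kept for every gene). The BAT libraries lay close together, and all were far above those of WAT. The difference was 7.94 ± 0.18, 246-fold as deposited and 438-fold rescaled (limma, adjusted p = 1.6e-06). Cidea, a lipid droplet protein of brown adipocytes, was at 1509, 1121 and 1269 FPKM in BAT and 2.92, 3.99 and 4.18 FPKM in WAT, a difference of 8.43 ± 0.17 (adjusted p = 1.4e-06). Its groups did not overlap, and its BAT level was above that of Ucp1 in every condition.

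Among the transcriptional regulators of the list, Ppargc1b, a coactivator of mitochondrial genes, was at 18.8, 18.9 and 17.6 FPKM in BAT and 1.73, 1.47 and 1.26 FPKM in WAT, a difference of 3.56 ± 0.14, and its relative Ppargc1a differed by 1.74 ± 0.23. Ppara, a nuclear receptor that drives fatty acid oxidation genes, differed by 4.27 ± 0.16, 19.3-fold, with no overlap. Prdm16, a determination factor of brown fat, was at 1.16, 1.88 and 1.78 FPKM in BAT and 0.634, 1.09 and 0.926 FPKM in WAT. All Prdm16 values in BAT were above those in WAT, but its difference of 0.80 ± 0.27 was under 2-fold and it was called only after rescaling. Ebf2, another factor of brown precursors, was at 7.78, 5.74 and 7.05 FPKM in BAT and 11.50, 5.05 and 5.04 FPKM in WAT, so the groups overlapped. Dio2, the deiodinase that activates thyroid hormone, was low in both organs and was called only after rescaling.

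Among the enzymes, channels and droplet proteins of the list, Slc27a2, which takes up and activates very long chain fatty acids, was at 66.3, 65.5 and 74.9 FPKM in BAT and 0.0209, 0.365 and 1.46 FPKM in WAT. All BAT values were above those of WAT, where the 3 values differed widely among themselves, and the difference was 7.28 ± 0.81 (adjusted p = 0.00012). Pank1, an enzyme of coenzyme A synthesis, was at 74.6, 82.6 and 81.2 FPKM in BAT and 1.70, 1.70 and 1.61 FPKM in WAT. Its values were nearly constant within each organ, 45.0-fold apart. Kcnk3, a potassium channel, differed by 2.95 ± 0.29, Plin5, which tethers lipid droplets to mitochondria, by 4.48 ± 0.28, and Elovl3, a fatty acid elongase, by 4.50 ± 0.67. The exception in the list was Epsti1, which was at 0.442, 0.352 and 0.286 FPKM in BAT and 6.63, 4.03 and 5.81 FPKM in WAT, a difference of -3.59 ± 0.24 in favour of WAT on both scales. Slc27a2, Ppara and Elovl3 were also in the liver-enriched set.

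**Figure D1:**
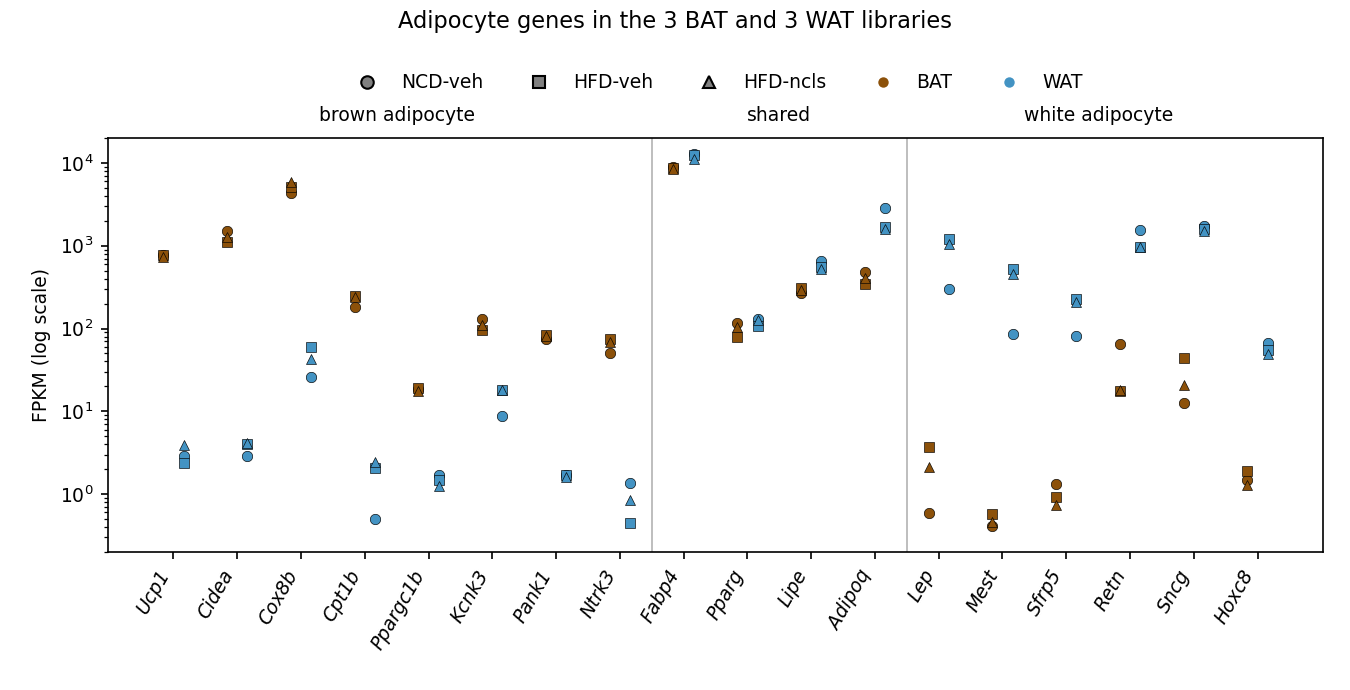
FPKM (log scale) of 18 adipocyte genes in the 3 BAT (brown) and 3 WAT (blue) libraries, with the condition given by the marker shape. The brown adipocyte genes shown lie higher in BAT, the white adipocyte genes shown lie higher in WAT, and of the shared genes Pparg overlaps between organs. Epsti1, Ebf2, Prdm16 and Dio2 of the brown adipocyte list, not called higher in BAT as deposited, are not shown.

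The respiratory chain list was higher in BAT almost throughout. Of 81 nuclear genes of the chain and ATP synthase, 74 were higher in BAT, 2 were higher in WAT and 5 were not called, with a median difference of 2.12, and rescaled 77 and 1 were called with a median of 2.96. Without the muscle-enriched members, 71 of 78 were higher in BAT as deposited. Over all tested genes 6.75% were higher in BAT as deposited and 16.4% rescaled. These 81 genes made up 17.9, 18.8 and 19.99% of the summed FPKM of the BAT libraries and 2.79, 2.67 and 2.55% of that of the WAT libraries. All 37 genes of complex I, which takes electrons from NADH, were higher in BAT on both scales, as were all 4 of complex II and all 10 of complex III and cytochrome c. Of 14 genes of complex IV, which passes electrons to oxygen, 13 were called as deposited and 14 rescaled. In ATP synthase, which makes ATP from the proton gradient, the count was lower, with 10 of 16 higher in BAT and 2 higher in WAT.

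Those 2 genes have different roles. Atpif1, which encodes the inhibitor of the enzyme, was at 23.6, 23.4 and 27.02 FPKM in BAT and 83.6, 98.1 and 109 FPKM in WAT, a difference of -1.96 ± 0.13 (adjusted p = 1.2e-05). All WAT values lay above all BAT values, and the call held after rescaling, where the difference was -1.12. Atp5g1, one of 3 genes for subunit c of the proton channel, was at 12.1, 10.96 and 5.63 FPKM in BAT and 26.1, 27.5 and 28.6 FPKM in WAT, and was called higher in WAT only as deposited. Its paralogue Atp5g2 differed by 1.24 ± 0.11 in favour of BAT, while Atp5g3 differed by -0.27 ± 0.11.

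Complex IV subunits that exist in tissue forms were not all used in the same form as in muscle. Cox7a1, the heart and muscle form of subunit 7A, was at 1546, 2085 and 2239 FPKM in BAT and 9.16, 17.5 and 15.5 FPKM in WAT, a difference of 7.15 ± 0.26. Cox8b, the muscle form of subunit 8, was at 4379.9, 5142 and 5863 FPKM in BAT and 26.1, 60.4 and 43.4 FPKM in WAT, a difference of 6.96 ± 0.29. Of subunit 6A, by contrast, the general form Cox6a1 was at 2743, 2169 and 2329 FPKM in BAT, while the muscle form Cox6a2 was at 38.3, 22.9 and 2.18 FPKM there, 0.289, 2.49 and 1.30 FPKM in WAT and 1520.3, 1598 and 1529.9 FPKM in muscle. Cox6a2 thus stood well below Cox6a1 in each BAT library.

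The enzymes that feed the chain followed the same direction. The shares over all tested genes higher in BAT were 6.75% as deposited and 16.4% rescaled. Of 21 genes of pyruvate dehydrogenase and the TCA cycle, 18 were higher in BAT and none in WAT, and rescaled all 21 were higher in BAT, with medians of 1.84 and 2.69. Cs, the citrate synthase that opens the cycle, was at 420.1, 479 and 438 FPKM in BAT and 138, 143 and 133 FPKM in WAT, a difference of 1.69 ± 0.10 with no overlap. Of 20 fatty acid oxidation genes, 17 were higher in BAT, 1 was higher in WAT and 2 were not called, with a median of 1.94, and rescaled the counts were 18, 1 and 1. Acaa2, the thiolase of the last step, was at 718, 1009.8 and 979.9 FPKM in BAT and 64.0, 71.3 and 67.5 FPKM in WAT, a difference of 3.72 ± 0.15.

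The carnitine palmitoyltransferase that admits fatty acids to mitochondria was represented by different genes in each organ. Cpt1b, also the muscle form, was at 184, 249.9 and 239 FPKM in BAT and 0.501, 2.04 and 2.47 FPKM in WAT, a difference of 7.22 ± 0.51 (adjusted p = 1.7e-05). Cpt1a, the liver form, ran the other way, at 2.02, 4.08 and 3.45 FPKM in BAT and 28.2, 42.1 and 36.3 FPKM in WAT, a difference of -3.48 ± 0.27 (adjusted p = 2.4e-05). In neither gene did the organs overlap, and both calls held on both scales.

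**Figure D2:**
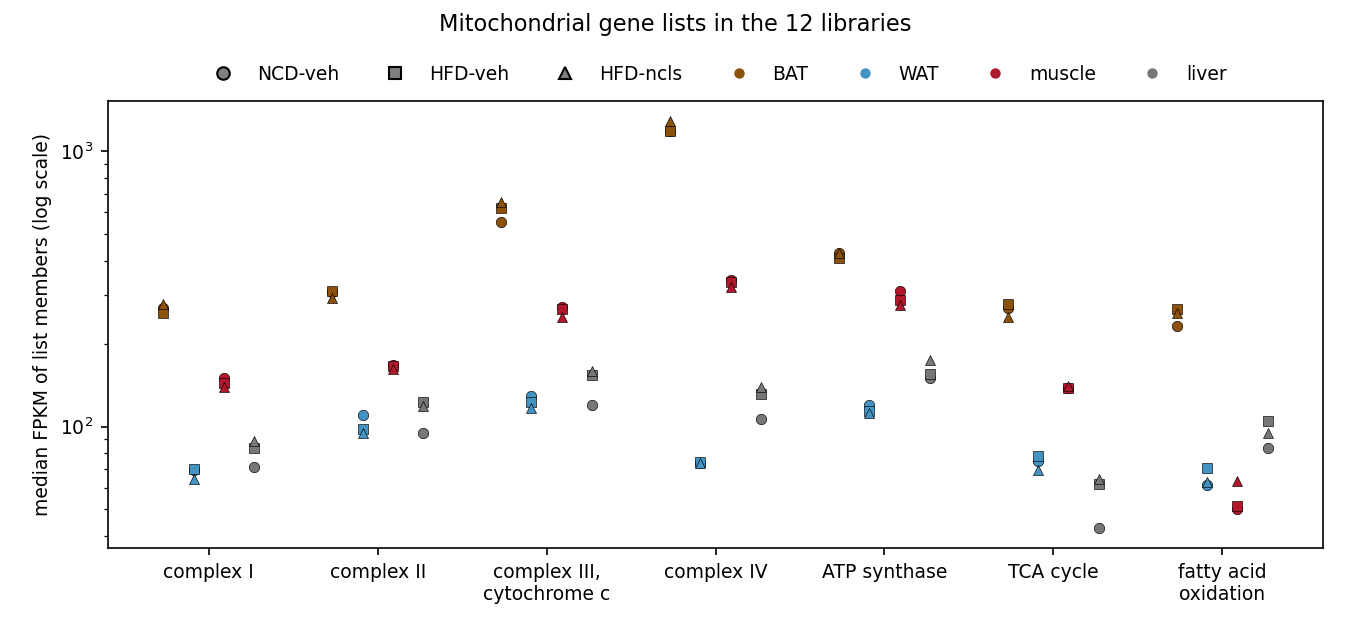
Median FPKM (log scale) over the members of 7 mitochondrial lists, for each of the 12 libraries, by organ (colour) and condition (marker). In each list the 3 BAT libraries lie above all libraries of WAT, muscle and liver.

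The regulators and the maintenance machinery of mitochondria differed less than the enzymes. Of 27 genes of mitochondrial biogenesis and dynamics, 7 were higher in BAT and none in WAT as deposited, and 15 and none rescaled. Over all tested genes the shares were 6.75% and 50% as deposited and 16.4% and 24% rescaled. Tfam, which packages mitochondrial DNA, was at 3.10, 2.70 and 3.04 FPKM in BAT and 4.15, 2.96 and 3.48 FPKM in WAT, and Mfn2, a fusion protein, at 51.2, 47.6 and 46.4 FPKM and 53.0, 51.4 and 45.5 FPKM. Both overlapped between the organs and were called on neither scale. Of 76 mitochondrial ribosomal protein genes, 16 were higher in BAT and 1 in WAT as deposited, against 64 and none rescaled, so this list's count moved with the scale more than any of the enzyme lists. Of 78 cytosolic ribosomal protein genes, many of which have near-identical pseudogene copies, 2 and 3 were called as deposited and 12 and none rescaled. These cytosolic counts were below or near the shares over all tested genes.

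Promoters of Ucp1, of Lep, the gene of the white adipocyte hormone leptin, and of 3 respiratory chain genes are shown as the 250 bases before the RefSeq transcription start (GRCm38.p6), read 5′ to 3′ on the gene's strand, because they hold a motif of a factor known for these programmes. The motifs searched on both strands were GCGCA, any 1 base and GCGC (NRF1, a factor of nuclear genes for mitochondrial proteins), AGGTCA (the core motif of nuclear receptors such as PPARs) and TTGCGCAA (C/EBP, factors of adipocyte differentiation). The first and the last share the letters GCGCA. Capitals mark the matches of 1 motif per gene.
Ucp1, chr8:83290098-83290347, + strand: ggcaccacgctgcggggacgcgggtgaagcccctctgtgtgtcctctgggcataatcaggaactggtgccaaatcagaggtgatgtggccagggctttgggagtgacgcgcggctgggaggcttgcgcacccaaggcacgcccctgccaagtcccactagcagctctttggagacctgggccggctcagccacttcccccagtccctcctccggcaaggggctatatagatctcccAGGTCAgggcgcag
Lep, chr6:29059971-29060220, + strand: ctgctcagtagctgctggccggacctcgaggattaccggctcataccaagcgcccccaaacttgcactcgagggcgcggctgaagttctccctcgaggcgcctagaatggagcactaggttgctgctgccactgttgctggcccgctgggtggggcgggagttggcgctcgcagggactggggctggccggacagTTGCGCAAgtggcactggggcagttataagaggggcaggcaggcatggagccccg
Ndufb4, chr16:37654369-37654618, - strand: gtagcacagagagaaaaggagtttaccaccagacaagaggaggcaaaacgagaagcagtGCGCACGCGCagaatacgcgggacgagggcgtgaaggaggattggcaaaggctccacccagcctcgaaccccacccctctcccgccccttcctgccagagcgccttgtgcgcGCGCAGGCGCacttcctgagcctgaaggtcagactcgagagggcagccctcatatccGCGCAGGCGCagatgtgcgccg
Sdha, chr13:74350241-74350490, - strand: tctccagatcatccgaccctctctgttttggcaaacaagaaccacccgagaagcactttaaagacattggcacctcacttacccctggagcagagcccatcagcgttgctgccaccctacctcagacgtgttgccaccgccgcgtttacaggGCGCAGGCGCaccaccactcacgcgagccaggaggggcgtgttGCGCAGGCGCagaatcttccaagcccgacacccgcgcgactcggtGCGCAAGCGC
Cox6a1, chr5:115348959-115349208, - strand: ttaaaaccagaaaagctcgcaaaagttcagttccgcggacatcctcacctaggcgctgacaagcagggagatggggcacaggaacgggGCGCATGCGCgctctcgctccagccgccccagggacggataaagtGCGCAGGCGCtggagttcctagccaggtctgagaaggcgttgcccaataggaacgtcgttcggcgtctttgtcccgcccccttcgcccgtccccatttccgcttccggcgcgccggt
In Ucp1 the capitals mark AGGTCA, 14 bases before the start, and in Lep they mark TTGCGCAA, 55 bases before it. Ndufb4 (complex I), Sdha (complex II) and Cox6a1 (complex IV) are the respiratory chain genes with at least 2 NRF1 matches in this window, holding 3, 3 and 2, which are in capitals.

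Promoter sequences were found for 9397 of the tested genes, and 9.13% of these held the NRF1 motif. It was present in 14 of 66 respiratory chain genes (21.2%), in 49 of the 536 genes higher in BAT with a promoter (9.14%) and in 5.87% of the genes higher in WAT on both scales. AGGTCA was present in 13.2% of all tested genes with a promoter, in 18.1% of those higher in BAT and in 13.0% of those higher in WAT. TTGCGCAA was rare, in 29 genes (0.309%). A match describes these letters in this window and not binding.

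Of 18 genes of glucose uptake and glycolysis, 7 were higher in BAT, 4 were higher in WAT and 7 were not called, and rescaled the counts were 12, 1 and 5, with the muscle-enriched Pfkm, a phosphofructokinase, among the BAT genes. Over all tested genes the shares were 6.75% and 50% as deposited and 16.4% and 24% rescaled, so the WAT counts were below the background. The lactate dehydrogenase form Ldhb was at 259, 237 and 256 FPKM in BAT and 34.99, 24.97 and 24.3 FPKM in WAT, a difference of 3.17 ± 0.16. Ldha, the other form, overlapped between the organs at 215, 168 and 111 FPKM and 165, 206 and 234 FPKM. Slc2a4, the insulin-responsive glucose transporter GLUT4, was at 87.7, 50.7 and 45.8 FPKM in BAT and 60.5, 48.6 and 46.7 FPKM in WAT, and these ranges overlapped too. It was called higher in BAT only after rescaling.

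Of 21 genes of fatty acid and triglyceride synthesis, 5 were higher in BAT and 8 in WAT as deposited (6.75% and 50% over all tested genes), and 5 and 5 rescaled (16.4% and 24%), so the WAT counts were below or at the background. Fasn, the fatty acid synthase, was at 705, 348 and 171 FPKM in BAT and 453, 432 and 412 FPKM in WAT, so the WAT values were even while the BAT values lay on both sides of them. Acacb, the acetyl-CoA carboxylase at mitochondria, was at 93.9, 82.3 and 76.2 FPKM in BAT and 13.3, 9.15 and 9.85 FPKM in WAT, a difference of 2.97 ± 0.16 with no overlap. Scd2, a desaturase, was at 22.4, 8.14 and 4.9999 FPKM in BAT and 106, 231 and 197 FPKM in WAT, a difference of -4.11 ± 0.55. Mogat2, a monoacylglycerol acyltransferase, differed by -5.30 ± 0.61, with all BAT values under 1 FPKM.

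Of 12 creatine and glycerol handling genes, 3 were higher in BAT and 3 in WAT as deposited, and of 11 rescaled 7 and 2 were. Over all tested genes the shares were 6.75% and 50% as deposited and 16.4% and 24% rescaled. Ckmt2, a mitochondrial creatine kinase counted among the BAT genes, is muscle-enriched and was at 9.76, 5.85 and 0.458 FPKM in BAT and 0.137, 0.0351 and 0.0386 FPKM in WAT. Gpd2, the mitochondrial glycerol phosphate dehydrogenase, was at 58.1, 81.6 and 55.0 FPKM in BAT and 14.6, 7.15 and 8.11 FPKM in WAT, a difference of 2.74 ± 0.28. Gamt, the last enzyme of creatine synthesis, was at 4.21, 3.81 and 1.88 FPKM in BAT and 39.6, 61.3 and 62.9 FPKM in WAT, a difference of -4.06 ± 0.32. Both genes separated the organs without overlap, in opposite directions.

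Adrenergic receptors and cAMP signalling had members called for each organ. Of 16 genes, 4 were higher in BAT and 7 in WAT as deposited (6.75% and 50% over all tested genes), and 6 and 1 rescaled (16.4% and 24%), so the WAT counts were below the background. Adrb3, the main adrenergic receptor of mouse fat, was at 13.4, 51.9 and 24.5 FPKM in BAT and 212, 67.0 and 70.4 FPKM in WAT. The WAT values were all higher, with a difference of -1.95 ± 0.59, but the call was lost after rescaling (adjusted p = 0.14). Gnas, which encodes the stimulatory G protein subunit among other products, was at 1875, 2673 and 3051 FPKM in BAT and 644, 594 and 628 FPKM in WAT, a difference of 1.997 ± 0.187. Of the adenylyl cyclases that make cAMP, Adcy5 was at 0.419, 0.558 and 0.317 FPKM in BAT and 34.9, 55.4 and 40.2 FPKM in WAT, a difference of -6.36 ± 0.23 (adjusted p = 2.7e-06), while Adcy3 differed by 0.54 ± 0.10 and was called only after rescaling. Pde4d, a phosphodiesterase that breaks cAMP down, differed by 2.36 ± 0.17 in favour of BAT, and Adra1a, an alpha receptor, by 1.28 ± 0.26.

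All 16 tested white adipocyte genes were higher in WAT on both scales (23.7% over all tested genes), with a median of -5.79 as deposited and -5.08 rescaled. Of these, 3 (Tcf21, Wt1 and Hoxc9) were listed at 0 in all BAT libraries, where a listed 0 can also be a failed estimate, and they enter the median at log2(0 + 0.1). Lep, the hormone leptin, was at 0.597, 3.68 and 2.13 FPKM in BAT and 300.2, 1199 and 1062 FPKM in WAT. Both organs were lowest in NCD-veh and highest in HFD-veh, and every WAT value was far above every BAT value, a difference of -8.65 ± 0.73 or 402-fold (adjusted p = 3.3e-05). Mest, an imprinted gene linked to adipocyte enlargement, was at 0.416, 0.576 and 0.455 FPKM in BAT and 87.0, 526 and 453 FPKM in WAT, a difference of -8.89 ± 0.64. Its WAT values were lowest in NCD-veh, while its BAT values stayed under 1 FPKM.

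Sfrp5, a secreted Wnt inhibitor, was at 1.34, 0.928 and 0.735 FPKM in BAT and 80.6, 229.8 and 208 FPKM in WAT, a difference of -7.19 ± 0.41. Retn, the hormone resistin, was at 65.5, 17.4 and 18.0 FPKM in BAT and 1551, 963 and 967 FPKM in WAT, a difference of -5.36 ± 0.51, and in both organs it was highest in NCD-veh. Sncg, gamma-synuclein, was at 12.7, 43.9 and 21.0 FPKM in BAT and 1739, 1584 and 1493 FPKM in WAT, a difference of -6.13 ± 0.40. Agt, the precursor of angiotensin, differed by -7.37 ± 0.58, Slc7a10, an amino acid transporter of white adipocytes, by -5.36 ± 0.15, and Npr3, the clearance receptor of natriuretic peptides, by -5.85 ± 0.37. None of these 6 genes overlapped between the organs, and 70.4% of all tested genes were higher in WAT without overlap.

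Secreted factors were called higher in WAT for 11 of 18 genes on both scales (23.7% over all tested genes), and higher in BAT for 2 as deposited and 4 rescaled. Over all tested genes 6.75% and 16.4% were higher in BAT, so the BAT counts were near the background. Retnla, a resistin-like molecule also made by alternatively activated macrophages, was at 6.31, 5.94 and 3.44 FPKM in BAT and 867, 875 and 774 FPKM in WAT, a difference of -7.34 ± 0.23. The BAT genes as deposited were Vegfa, the vascular growth factor, at 73.9, 101 and 124 FPKM in BAT and 55.2, 38.4 and 40.1 FPKM in WAT, and Ptgds, the prostaglandin D synthase, which differed by 5.09 ± 0.67. Nrg4, a growth factor ascribed to brown fat, was at 23.7, 33.2 and 36.7 FPKM in BAT and 36.2, 20.7 and 23.7 FPKM in WAT. Its ranges overlapped, and it was called higher in BAT only after rescaling.

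The adipocyte genes that both organs use had the smallest median difference of the 3 adipocyte lists. Of 28, none were higher in BAT, 11 were higher in WAT and 17 were not called as deposited, with a median of -0.75. Rescaled, the counts were 8, 6 and 14, with a median of 0.10. Over all tested genes 6.75% were higher in BAT and 50% in WAT as deposited, and 16.4% and 24% rescaled. Pparg, the nuclear receptor that drives adipocyte differentiation, was at 116, 78.4 and 104 FPKM in BAT and 129, 109 and 125 FPKM in WAT, with overlap. Fabp4, the adipocyte fatty acid binding protein and the highest of the list, was at 8965, 8605 and 8416 FPKM in BAT and 12720.3, 12381 and 11212 FPKM in WAT, a difference of -0.48 ± 0.13 that was not called. Adipoq, the hormone adiponectin, was at 478, 349.7 and 409.6 FPKM in BAT and 2849, 1692 and 1599.8 FPKM in WAT, a difference of -2.27 ± 0.24, called on both scales.

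Lipid droplet and lipase genes divided within this list. Cidec, which fuses droplets in white adipocytes, was at 486, 348 and 408 FPKM in BAT and 1685, 2142 and 1886 FPKM in WAT, a difference of -2.21 ± 0.16 and the reverse of Cidea. Pnpla2, the first lipase of triglyceride breakdown, was at 1101, 879 and 931 FPKM in BAT and 851, 678 and 599 FPKM in WAT, and was called higher in BAT only after rescaling. Cfd, the secreted protease adipsin, was at 821, 404 and 853 FPKM in BAT and 8163, 653 and 753 FPKM in WAT. Its WAT value in NCD-veh stood apart from all the others, and the gene was called on neither scale. Tshr, the thyrotropin receptor, had the largest difference of the list at -6.28 ± 0.17, with 0.890, 0.634 and 0.611 FPKM in BAT and 71.0, 64.3 and 53.0 FPKM in WAT.

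**Figure D3:**
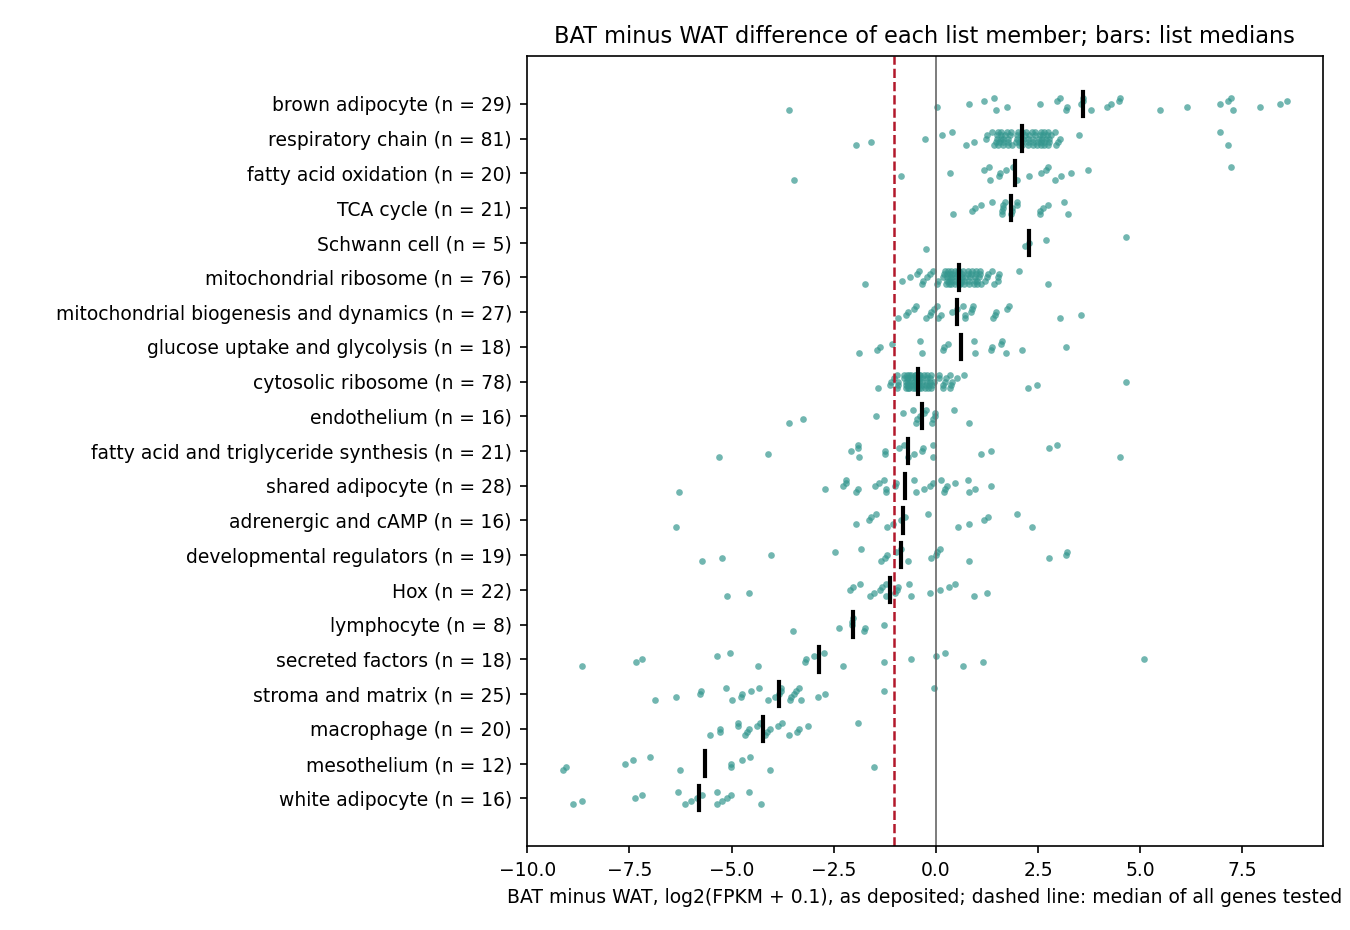
BAT minus WAT difference on the log2(FPKM + 0.1) scale, as deposited, of each tested member (points) of 21 lists, with the list median as a bar and the median of all tested genes (-1.02) as a dashed line. The medians of the brown adipocyte and mitochondrial enzyme lists lie to the right of the line, and those of the white adipocyte, mesothelium, macrophage and matrix lists to its left.

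Genes that pattern the embryo were mostly at low levels. Of 19 developmental regulators, 3 were higher in BAT and 8 in WAT as deposited, and 4 and 4 rescaled, where 6.75% and 50% of all tested genes were called as deposited and 16.4% and 24% rescaled, so the WAT counts were below or near the background. Zic1 was at 0.691, 0.737 and 1.24 FPKM in BAT and 0.00199, 0.0143 and 0 FPKM in WAT, and Lhx8 was at 0.633, 0.578 and 1.53 FPKM in BAT and listed at 0 in all WAT libraries. The other BAT gene, Tbx15, is muscle-enriched, at 1.63, 0.882 and 0.447 FPKM in BAT, 0.0521, 0.0134 and 0.0736 FPKM in WAT and 76.9, 98.2 and 76.0 FPKM in muscle, and its BAT values had the order of the fast-twitch genes given below. Gata6, Foxc2, Tcf21 and Wt1 were higher in WAT on both scales, and Gata6 was at 0.129, 0.306 and 0.307 FPKM in BAT and 9.34, 4.07 and 4.22 FPKM in WAT.

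Among the 22 tested Hox genes, which mark position along the body axis, 1 was higher in BAT and 12 in WAT as deposited, and 4 and 4 rescaled, counts near the shares over all tested genes (6.75% and 50% as deposited, 16.4% and 24% rescaled). On both scales Hoxa4, an anterior gene of its cluster, was higher in BAT, at 3.84, 5.11 and 4.85 FPKM against 1.82, 1.80 and 1.94 FPKM in WAT. Hoxc8 was at 1.49, 1.91 and 1.31 FPKM in BAT and 66.9, 55.1 and 49.3 FPKM in WAT, a difference of -5.10 ± 0.17, and Hoxc9 was listed at 0 in all BAT libraries and was at 3.01, 1.81 and 2.19 FPKM in WAT. Hoxc6 and Hoxd8 were also higher in WAT on both scales, with differences of -2.10 ± 0.13 and -2.03 ± 0.21.

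Markers of other cells in the tissues differed as well, and their part in the adipocyte gene differences was not tested. All 12 tested markers of mesothelium, the lining of the abdominal organs and cavity, were higher in WAT as deposited (50% over all tested genes) and 11 rescaled (24%). Their summed level was 9.38 to 12.8 FPKM in BAT and 187 to 431 FPKM in WAT. Upk3b was listed at 0 in all BAT libraries and was at 104, 37.8 and 37.3 FPKM in WAT, and Msln was at 0.0183, 0 and 0 FPKM in BAT and 31.0, 15.6 and 18.5 FPKM in WAT. Wt1, counted above as a white adipocyte and developmental gene, is also expressed by mesothelium. None of 12 epididymis markers reached 1 FPKM in any of the 6 libraries.

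All 20 macrophage markers were higher in WAT on both scales (23.7% over all tested genes). Their summed level was 116 to 177 FPKM in BAT and 1507 to 2876 FPKM in WAT. Cd68, a lysosomal protein of macrophages, was at 3.62, 9.15 and 2.60 FPKM in BAT and 49.5, 198 and 222 FPKM in WAT, lowest of the WAT libraries in NCD-veh. Of 25 stroma and matrix genes, 24 were higher in WAT as deposited (50% over all tested genes) and 23 rescaled (24%). The stroma and matrix sums were 524 to 671 FPKM in BAT and 4790 to 5880 FPKM in WAT. Of 16 endothelial genes, 13 were not called as deposited and 12 rescaled, and their sums of 285 to 383 FPKM in BAT and 306 to 513 FPKM in WAT overlapped. As deposited 3 endothelial genes were higher in WAT, and rescaled 2 were higher in each organ, so the WAT counts were below the background. The rescaled BAT count was near the share of 16.4% over all tested genes. Pecam1, the endothelial adhesion molecule CD31, was at 42.0, 51.9 and 46.7 FPKM in BAT and 40.6, 67.3 and 69.8 FPKM in WAT. Of 8 tested lymphocyte genes, 7 were higher in WAT as deposited, and of 7 tested rescaled 3 were, against 50% and 24% over all tested genes.

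Schwann cell markers, of the glia that ensheath peripheral nerves, were higher in BAT for 4 of 5 tested genes as deposited and 5 of 6 rescaled. Over all tested genes 6.75% and 16.4% were higher in BAT. The summed level of the list was 27.04, 13.6 and 12.4 FPKM in BAT and 10.8 to 10.9 FPKM in WAT, highest in BAT NCD-veh. Without that library 2 of the genes were called. S100b, a calcium-binding protein of these cells and of some adipocytes, was instead lowest among the BAT libraries in NCD-veh, at 33.7, 116 and 90.3 FPKM, against 1.53, 1.98 and 1.97 FPKM in WAT.

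**Figure D4:**
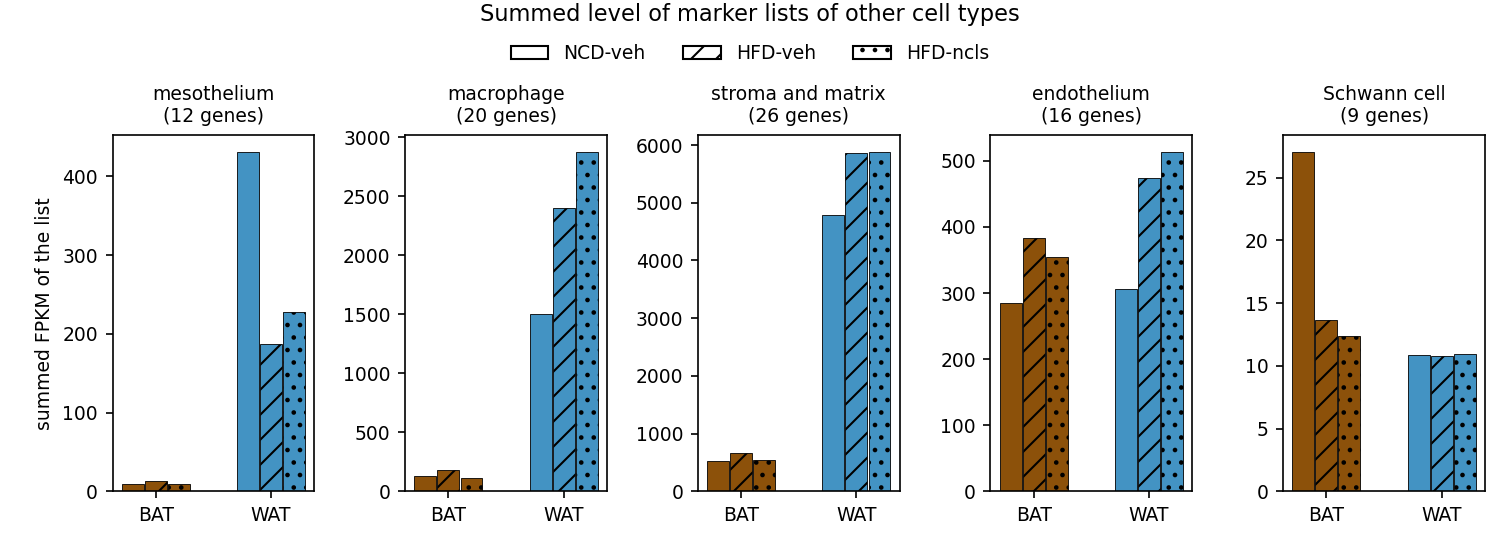
Summed FPKM of the markers of 5 other cell types in the 6 libraries, as bars from 0 with the condition given by the fill. Mesothelium, macrophage and matrix sums are higher in all WAT libraries, and endothelial sums overlap.

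Skeletal muscle genes were kept apart, since muscle lies next to fat depots and brown adipocytes also use some of these genes. Of 301 muscle-enriched genes, 224 were tested, and 100 (44.6%) were higher in BAT and 40 (17.9%) in WAT as deposited. Rescaled, 131 (54.1%) and 22 (9.09%) of 242 were called. Over all tested genes the shares were 6.75% and 50% as deposited and 16.4% and 24% rescaled, so the WAT counts were below the background. Without the BAT NCD-veh library 65 muscle-enriched genes were higher in BAT. Of 19 fast-twitch fibre genes, 16 were higher in BAT as deposited and 18 rescaled. Tnnt3, the fast troponin T, was at 300.04, 139 and 22.4 FPKM in BAT and 0.497, 0.512 and 0.562 FPKM in WAT. Its BAT values were highest in NCD-veh and lowest in HFD-ncls, while its WAT values were even.

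Of the fast-twitch genes, 18 had a value in all muscle libraries, and their median level in BAT was 1.89, 0.767 and 0.114% of that in muscle of the same condition, against 0.0224, 0.0204 and 0.0245% in WAT. All 18 were ordered this way in BAT, from NCD-veh through HFD-veh to HFD-ncls. Across 300 muscle-enriched genes with a value in all libraries, 224 had the same order. Of 6 slow-twitch genes, 5 were higher in BAT as deposited (6.75% over all tested genes). The summed fast-twitch level was 2865, 1153 and 214 FPKM in BAT and 77.6 to 99.3 FPKM in WAT.

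A small set did not follow these genes. Coro6, Cox7a1, Cox8b, Cpt1b, Fabp3, Fbp2, Mapt and Tuba8, chosen after their values were seen, were at 10% or more of the muscle level in all BAT libraries. The median of these 8 was 87.8, 192 and 170% of muscle in BAT and 0.890, 2.34 and 2.21% in WAT, and the other 292 had medians of 2.61, 1.22 and 0.360% in BAT. Because the 8 were chosen by their level in BAT, that gap was set by the choice and tests nothing. The choice also bears on their order, since it left out any gene that fell below 10% in a BAT library. Lmod2, for example, was at 24.9, 9.94 and 0.502% of muscle in BAT. Fabp3, the heart and muscle fatty acid binding protein, was at 295, 976 and 1002 FPKM in BAT, 1.66, 1.55 and 1.65 FPKM in WAT and 298, 313 and 466 FPKM in muscle. It was lowest in BAT in NCD-veh, the BAT library with the highest fast-twitch sum. Its BAT minus WAT difference was 8.59 ± 0.45 (adjusted p = 6.5e-06).

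**Figure D5:**
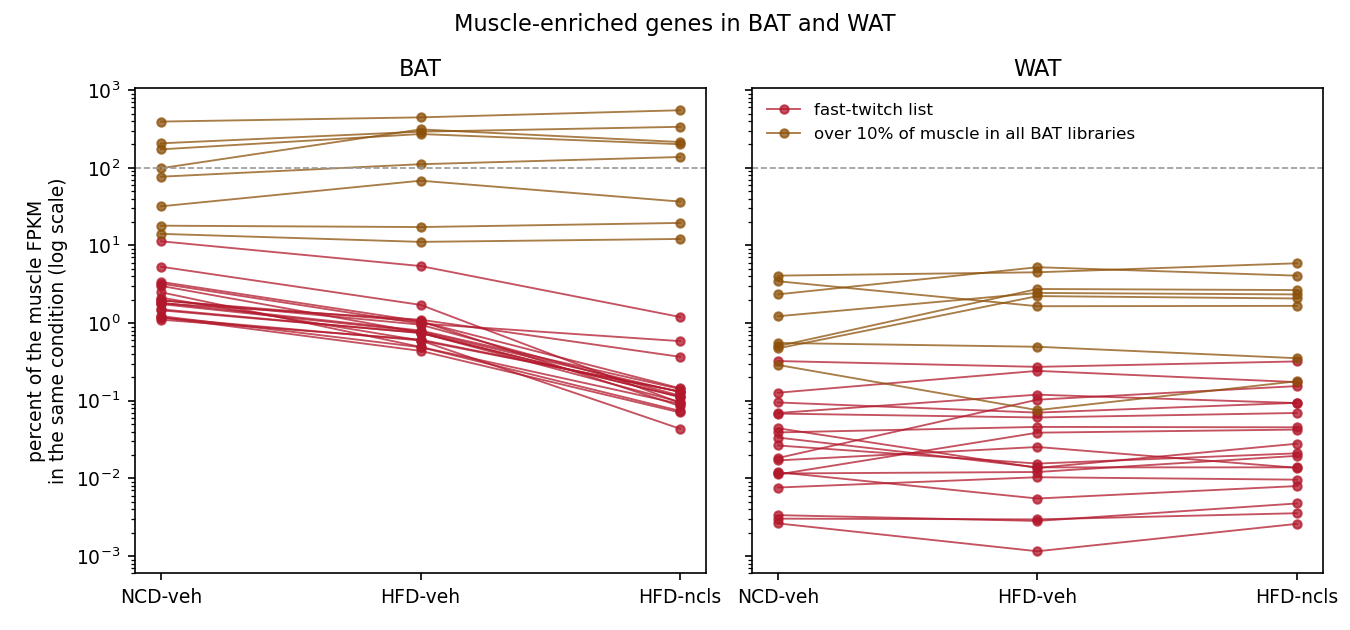
Level of muscle-enriched genes in BAT (left) and WAT (right) as a percent of the muscle FPKM in the same condition (log scale), 1 line a gene, with the fast-twitch list in red and the 8 genes at 10% or more of muscle in all BAT libraries in brown. In BAT all 18 fast-twitch lines descend from NCD-veh to HFD-ncls. None of the 8 does, but their choice left out genes that fell below 10% in a BAT library.

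Besides genes already given, the genes of largest difference in BAT by size held Ntrk3, the receptor of neurotrophin 3, at 50.1, 75.7 and 69.5 FPKM in BAT and 1.38, 0.444 and 0.851 FPKM in WAT. Adck3, a kinase-like protein of coenzyme Q synthesis, was at 425, 362 and 434 FPKM in BAT and 10.4, 7.35 and 7.88 FPKM in WAT, and Chchd10, a mitochondrial intermembrane space protein, differed by 5.24 ± 0.18. None of the 3 overlapped between organs, and 12.5% of all tested genes were higher in BAT without overlap. The unannotated A530050N04Rik was at 9.002, 15.6 and 11.7 FPKM in BAT and listed at 0 in all WAT libraries. Myh4, a fast-twitch myosin, was also among them, at 83.6, 48.6 and 6.28 FPKM in BAT, and had no muscle value by which it could be set apart. The globin Beta-s and the pseudogene Atp6v0c-ps2 had near-identical copies in the genome and erratic values near 0 in WAT, and are uncertain.

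The largest differences in favour of WAT were led by Slpi, a protease inhibitor of epithelia and itself a member of the mesothelium list. Slpi was at 0, 0.163 and 0 FPKM in BAT and 124, 51.1 and 73.2 FPKM in WAT, a difference of -9.13 ± 0.46. Lbp, the lipopolysaccharide binding protein, was at 0.347, 0.710 and 0.442 FPKM in BAT and 72.9, 204 and 213 FPKM in WAT, a difference of -7.98 ± 0.43. Oxtr, the oxytocin receptor, was at 0.0241, 0.0419 and 0.0252 FPKM in BAT and 11.1, 44.6 and 49.9 FPKM in WAT, a difference of -7.81 ± 0.54. Lbp and Oxtr were lowest among the WAT libraries in NCD-veh, and Slpi was highest there. The others were Upk3b, Upk1b and Msln of the mesothelium list, Mest, Lep, Retnla and Sfrp5 given above, the unannotated 1700047G03Rik, which differed by -8.22 ± 0.99, and Ear11, an eosinophil-associated ribonuclease listed at 0 in all BAT libraries.

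Set against the other organs of the study, the genes of each fat organ were mostly highest in that organ. Of 728 genes outside the muscle- and liver-enriched sets that were higher in BAT on both scales and had values in all 4 organs, 569 (78.2%) had their highest mean level in BAT, 69 in muscle and 90 in liver. Of 2870 genes higher in WAT, 2627 (91.5%) were highest in WAT. Over all 12233 tested genes outside the enriched sets, 11.7% were highest in BAT and 64.8% in WAT. Those were not chosen by a difference between the fat organs, whereas the 728 and the 2870 were. By that choice none of the 728 was highest in WAT and none of the 2870 in BAT, so their shares were partly set by it. Of the respiratory chain genes, 74 of 81 were highest in BAT, above muscle and liver as well. Genes enriched in liver were higher in BAT for 32 (11.3%) and in WAT for 160 (56.7%) of 282 tested genes as deposited. Rescaled, 46 (17.4%) and 127 (47.9%) of 265 were called. Over all tested genes the shares were 6.75% and 50% as deposited and 16.4% and 24% rescaled. Of 15 liver markers, 6 were higher in WAT on both scales, and without the WAT NCD-veh library all 15 were called. Their median level in WAT was 0.00151, 0.0721 and 0.236% of that in liver, in the order NCD-veh, HFD-veh and HFD-ncls.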

How the data were processed

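RNA sequencing libraries of BAT and WAT, 1 per organ in each of 3 conditions, were used, with the muscle and liver libraries as a reference for enriched genes. The deposited FPKM values were made by the authors with TopHat (mm9) and Cufflinks over RefSeq genes, and no scaling between libraries is given in the sources used here. The depth in reads is unknown, so no counting interval is given. Relative depths read from the steps between low values ran from 0.708 to 1 times that of BAT NCD-veh. Genes with at least 1 FPKM in at least 1 of the 6 fat libraries were tested on log2(FPKM + 0.1) with limma 3.58.1 (R 4.3.3, moderated, two-sided, Benjamini-Hochberg over all tested genes). Called genes had an adjusted p under 0.05, a 2-fold difference and the same sign in 3 conditions. The alternative scale divided each library by the median, over 9290 genes, of its ratio to the mean of the 6 libraries on the log scale.

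Muscle-enriched and liver-enriched genes averaged 10 FPKM or more in that organ, 20-fold or more above the median over the remaining 9 libraries. Genes named by size were the 12 called genes of largest difference in each direction with at least 10 FPKM in the higher organ, and the 6 highest muscle-enriched genes in BAT. The members and lists were chosen with earlier results of these data known. The fit was tested on simulated data with known differences. Coordinates of genes are mm9 and those of promoters GRCm38.p6, from RefSeq. Whether libraries of the same condition came from the same mice is not given in the sources used here. Tables and figures were made with Python 3.11.15, numpy 2.4.6, pandas 2.3.3 and matplotlib 3.10.9.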

Additional observations from a re-analysis of the deposited data

Results flagged for a closer look

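Among the 12747 tested genes, 54 (0.424%) were at least 2-fold higher in BAT in one condition and at least 2-fold higher in WAT in another. Of these, 3 held on both scales with at least 10 FPKM in some library and lay outside the muscle- and liver-enriched sets. With 1 library per organ and condition the difference between conditions was not tested.

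Cish, a feedback inhibitor of cytokine signalling, was at 1.84, 7.71 and 12.1 FPKM in BAT and 6.73, 2.23 and 1.998 FPKM in WAT (NCD-veh, HFD-veh and HFD-ncls). Its BAT minus WAT difference was negative in NCD-veh and positive in both HFD conditions, with a range of 4.35 (log2). Fos, an immediate early gene, was at 1.80, 44.2 and 29.4 FPKM in BAT and 7.23, 14.9 and 26.3 FPKM in WAT, with a range of 3.51. Insig1, which restrains sterol synthesis, ran the other way, at 69.6, 32.1 and 31.6 FPKM in BAT and 29.5, 105 and 152 FPKM in WAT, with a range of 3.499.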

How the results depend on the processing

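Outside the enriched sets, the 729 genes higher in BAT became 1882 after rescaling by the median ratio, 252 at a 4-fold threshold and 1884 with rescaling and condition as a replicate block, a fit chosen after seeing the data. The 6168 genes higher in WAT became 2870, 2556 and 2881 in the same order. Leaving out each library in turn gave 694 to 751 genes higher in BAT and 5921 to 6137 higher in WAT. The 100 muscle-enriched genes higher in BAT became 65 with a pseudocount of 1, 52 with a filter of at least 5 FPKM and 65 to 132 with a library left out, the lowest without BAT NCD-veh. The 351 list members called became 225 at 4-fold and 341 to 358 with a library left out. Deviations of BAT and WAT libraries of the same condition from their organ means correlated at 0.065, 0.149 and -0.033 across genes, not all over 0.1, so condition was not taken as a pairing. Whether they share mice is not known. With condition as a replicate block the counts were 730, 6170, 99 and 352. No alternative reversed the direction of any of the 30 genes named by size. Of their 420 values, 412 stayed on the same side of the thresholds. Beta-s lost its call in 4 alternatives (adjusted p = 0.051 to 0.083) and Myl1 in 1 (0.078), while Acta1 gained one in 3.

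With 1 library per organ and condition, diet, drug, animal and library spread cannot be told apart, and leaving out a library leaves 2 of an organ. FPKM near 0 carry the least precision, and which of the 2 scales holds was not tested.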
